A study of Rattus norvegicus with 6 samples.

Results

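Here, 4 circulating microRNAs were followed through matched arterial and venous plasma of the rat: rno-miR-221-3p and rno-miR-222-3p, a pair known from the vessel wall, and rno-miR-103-3p and rno-miR-107-3p, a pair known from metabolic tissue. They were selected by name, and all 4 names were present among the 758 rat microRNAs of the array. Each was read by 2 probes with 8 spots per probe on every array. Plasma came from 3 untreated male Sprague-Dawley rats aged 10 weeks, and from each rat 3 mL of arterial blood (abdominal aorta) or venous blood (postcava) was drawn into EDTA tubes. Each of the 6 plasma samples was hybridized to 1 single-colour Agilent array, which gave 3 arterial and 3 venous arrays paired by rat. The question was whether the 4 microRNAs differed between the arterial and venous plasma of the same animals, and whether the pairs behaved alike.

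A microRNA pairs with its target transcripts mainly through the seed, bases 2 to 8 of the mature strand, and lowers their translation or stability, so microRNAs with 1 seed are expected to share many targets. miR-221 and miR-222 are made from neighbouring hairpins, are abundant in endothelial and vascular smooth muscle cells, and are known to repress the stem cell factor receptor Kit and the cell cycle inhibitor p27. miR-103 and miR-107 are made from hairpins inside pantothenate kinase genes, which encode enzymes of coenzyme A synthesis, and are known to repress Dicer and, in fat and liver, to lower insulin sensitivity through caveolin-1. In plasma, microRNAs are carried by vesicles, by proteins and by remnants of blood cells, and a level does not tell which cells released them. The release of more RNA per cell and release from more cells cannot be told apart in such samples.

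The 4 mature strands are shown because the 2 pairs are defined by them (RefSeq sequences of the GRCr8 table, 5′ to 3′, with the seed in capitals).
rno-miR-221-3p: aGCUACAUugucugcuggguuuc
rno-miR-222-3p: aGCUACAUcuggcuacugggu
rno-miR-103-3p: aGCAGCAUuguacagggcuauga
rno-miR-107-3p: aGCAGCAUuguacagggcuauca
The pairs were not equally close. Beyond the seed miR-221-3p and miR-222-3p parted from base 9 on, with 11 identical bases of 21 compared, whereas miR-103-3p and miR-107-3p were identical at 22 of 23 bases. The single difference was G22C, counted from 1 at the 5′ end with the base of miR-103-3p first. Of the 758 names on the array, 685 had a mature sequence in the table. Among those, GCUACAU was the seed of 2 microRNAs, miR-221-3p and miR-222-3p, and GCAGCAU of 2, miR-103-3p and miR-107-3p. The probe sequences were not used here, and whether the probes of miR-103-3p and miR-107-3p, separated by 1 base near the 3′ end, shared signal was not tested.

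The hairpins of the metabolic pair are shown because miR-103-3p has more than 1 source (RefSeq, GRCr8 table, mature 3p strand in capitals).
Mir103a1: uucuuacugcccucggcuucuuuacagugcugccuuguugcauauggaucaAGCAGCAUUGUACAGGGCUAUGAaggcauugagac
Mir103a2: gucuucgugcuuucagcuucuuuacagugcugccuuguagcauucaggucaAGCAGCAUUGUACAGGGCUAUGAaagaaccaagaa
Mir107: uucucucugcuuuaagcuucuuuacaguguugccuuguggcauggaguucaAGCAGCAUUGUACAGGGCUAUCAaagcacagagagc
The mature miR-103-3p was the same in Mir103a1, which lies within Pank3, and in Mir103a2, which lies within Pank2, so its level was the sum over both. Mir107 lies within Pank1. Mir221 and Mir222 lay beside each other inside the long noncoding RNA genes LOC120099382 and LOC120099384 and were each other's nearest microRNA gene.

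Feature Extraction called 137 to 175 of the 758 microRNAs detected on an array, 126 of them on all 6 arrays and 201 on at least 1. The median intensity of the 126 varied more between arrays than between plasma types, from 30.1 to 41.8 on the arterial arrays and from 17.2 to 52.9 on the venous arrays, where the brightest was rat 2 and the dimmest rat 3. Rats 1 and 2 shared 1 slide, and rat 3 was on the other with both of its arrays, so every difference within a rat was also a difference within a slide. Erythrocyte microRNAs were detected throughout, 5 of 6 listed on every array, and rno-miR-144-5p on none.

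The pairs first differed in whether they were measured at all. miR-103-3p and miR-107-3p were called detected on 6 of 6 arrays. miR-221-3p was called detected on 4 arrays, the 3 arterial arrays and the venous array of rat 2. miR-222-3p was called detected on 2 arrays, the arterial array of rat 1 and the venous array of rat 2. That venous array was also the brightest of the 6. The other arms of the hairpins on the array, miR-221-5p, miR-222-5p, miR-103-1-5p, miR-103-2-5p and miR-107-5p, were called detected on 0 of 6 arrays, so within these hairpins detection calls fell on the 3p strand alone.

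At the level of spots, the vascular pair stayed close to background. Of the spots without an outlier flag, 3 of 91 (3.30%) of miR-221-3p and 1 of 88 (1.14%) of miR-222-3p were well above background, against 58 of 82 (70.7%) of miR-103-3p and 53 of 78 (67.9%) of miR-107-3p. No probe of miR-221-3p or miR-222-3p had more than 50% of its spots well above background on any array. The log2 differences and ratios given for this pair are thus between readings near background, and they are not read as fold changes of its level in plasma. For miR-103-3p at least 1 probe passed that mark on 3 arterial and 2 venous arrays, and for miR-107-3p on 3 and 3. The spots of 1 probe on 1 array varied accordingly, with a median coefficient of variation of 34.9% for miR-221-3p, 39.9% for miR-222-3p, 12.7% for miR-103-3p and 12.2% for miR-107-3p.

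**Figure D1:**
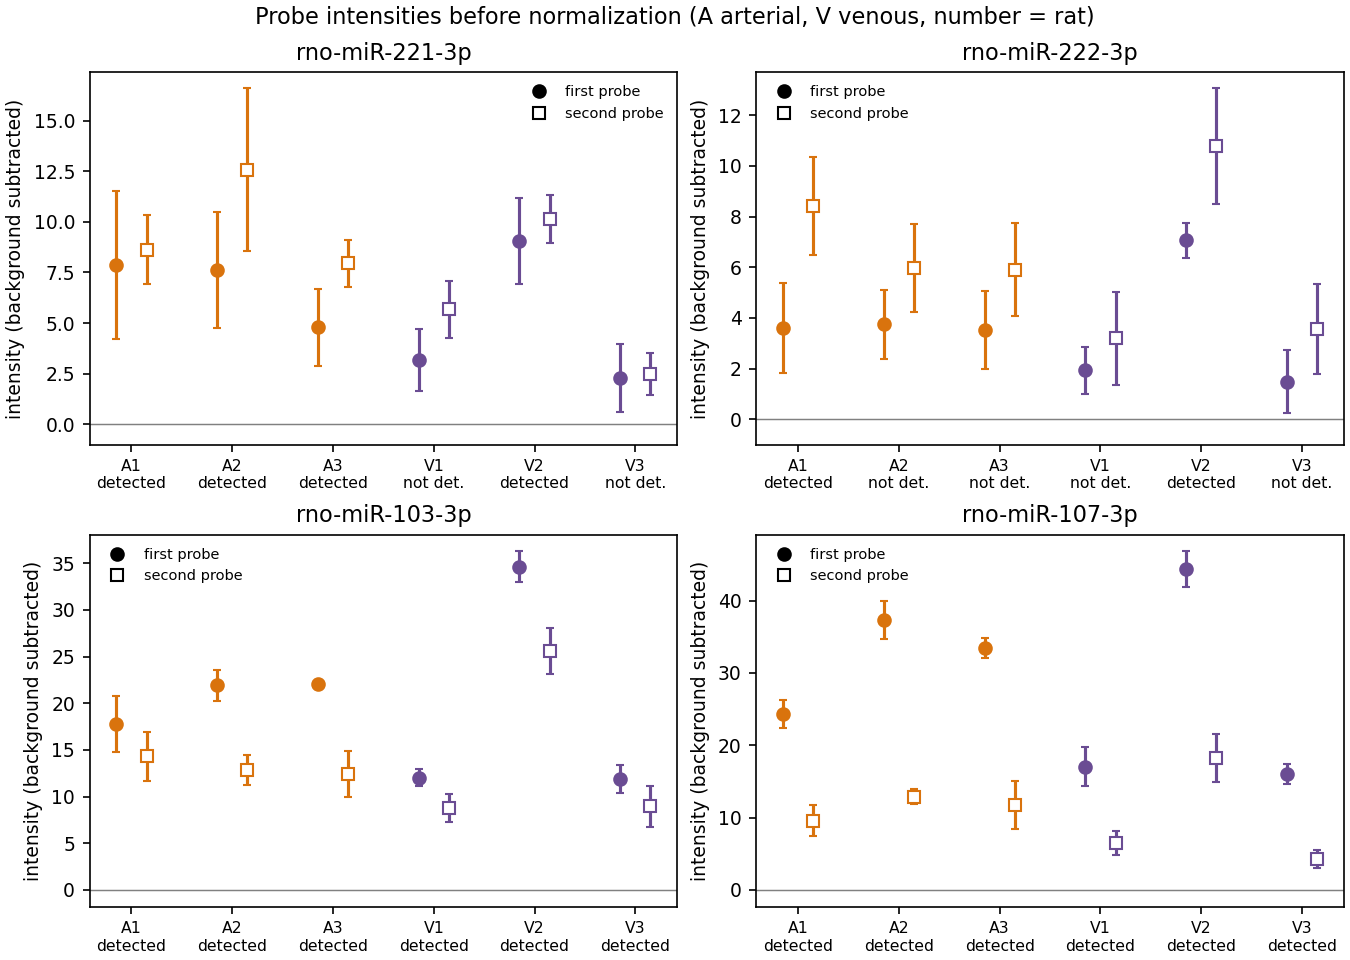
Background-subtracted intensity before normalization of each probe (mean ± SD over its spots without an outlier flag) on each array for the 4 microRNAs; A is arterial and V venous plasma, the number is the rat, orange is arterial and violet venous, filled circles are the first and open squares the second probe. The axes differ between panels, and both probes of each microRNA were brightest on the venous array of rat 2 except for the second probe of miR-221-3p, which was brightest on the arterial array of rat 2.

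Before normalization, miR-221-3p had an intensity of 8.24, 10.1 and 6.37 on the arterial arrays of rats 1, 2 and 3 and of 4.43, 9.60 and 2.38 on the venous arrays. Its partner miR-222-3p had 6.0, 4.86 and 4.71 in arterial and 2.56, 8.92 and 2.51 in venous plasma. Both were dim in the venous plasma of rats 1 and 3 and bright in that of rat 2, as the arrays were as a whole. miR-103-3p had 16.0, 17.4 and 17.2 in arterial and 10.4, 30.1 and 10.4 in venous plasma. miR-107-3p had 16.9, 25.1 and 22.6 in arterial and 11.8, 31.3 and 10.2 in venous plasma. The metabolic pair thus had the same order among venous arrays, with rat 2 far above rats 1 and 3.

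The probes of a microRNA moved together more closely for the metabolic pair than for miR-221-3p. In unnormalized log2 intensity, arterial minus venous, the first probe of miR-107-3p gave 0.51, -0.25 and 1.06 in rats 1, 2 and 3 and the second 0.55, -0.50 and 1.45. The probes of miR-103-3p gave 0.56, -0.66 and 0.89, and 0.71, -1.0 and 0.48. Both probes had the same sign in 3 of 3 rats for miR-103-3p, miR-107-3p and miR-222-3p. For miR-221-3p they had it in 2 of 3: the first probe gave 1.31, -0.25 and 1.06 and the second 0.60, 0.31 and 1.68, so its probes pointed in opposite directions in rat 2. The ratio of the first to the second probe stayed between 0.557 and 0.924 for miR-221-3p, 0.415 and 0.655 for miR-222-3p, 1.24 and 1.77 for miR-103-3p and 2.44 and 3.76 for miR-107-3p over the 6 arrays.

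After quantile normalization, which gives all arrays the same distribution of intensities, miR-221-3p was the member with the widest arterial excess. Its normalized log2 intensity read 2.78, 3.24 and 2.89 on the arterial arrays (rats 1, 2 and 3) and 2.60, 2.74 and 1.92 on the venous arrays. All arterial values lay above all venous values, although the lowest arterial and the highest venous value were from different rats and nearly met. The difference was 0.17, 0.50 and 0.97 in rats 1, 2 and 3, a mean of 0.55 on the log2 scale with a standard error of 0.220 and a 95% interval of -0.32 to 1.41 (limma with rat as block over 758 microRNAs, unadjusted p = 0.119, adjusted p = 1). Of the 201 with a detection call on any array, 22 (10.9%) were higher in arterial plasma in all 3 rats and 5 (2.49%) had groups that did not overlap with arterial higher, and miR-221-3p was the 1 member of 4 that met either description. The groups overlapped without normalization, with the brightest probe alone (arterial higher in 2 of 3 rats), with outlier spots kept, with the total gene signal and in the authors' quantile-normalized table. In that table the mean difference was 0.06, but its scale is compressed. There miR-221-3p read 44.1 to 49.9 and the undetected miR-221-5p 36.4 to 41.5, so 0.06 is not set against 0.55. In a limma fit over the 201 alone the 95% interval was -0.08 to 1.18 (unadjusted p = 0.0775, adjusted p = 0.826).

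For miR-222-3p the rats went in different directions. Its normalized log2 intensity was 2.17, 2.11 and 2.40 in arterial and 1.81, 2.61 and 2.02 in venous plasma, so rats 1 and 3 were higher in arterial plasma and rat 2 was higher in venous plasma. The differences of 0.37, -0.49 and 0.38 had a mean of 0.08 with a standard error of 0.275 and a 95% interval of -1.0 to 1.17 (limma, unadjusted p = 0.786, adjusted p = 1). Without rat 2 the mean difference was 0.37, with an unadjusted limma p of 0.00232 and an adjusted p of 0.293 on 2 rats, and over all alternatives its adjusted p lay between 0.293 and 1.

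**Figure D2:**
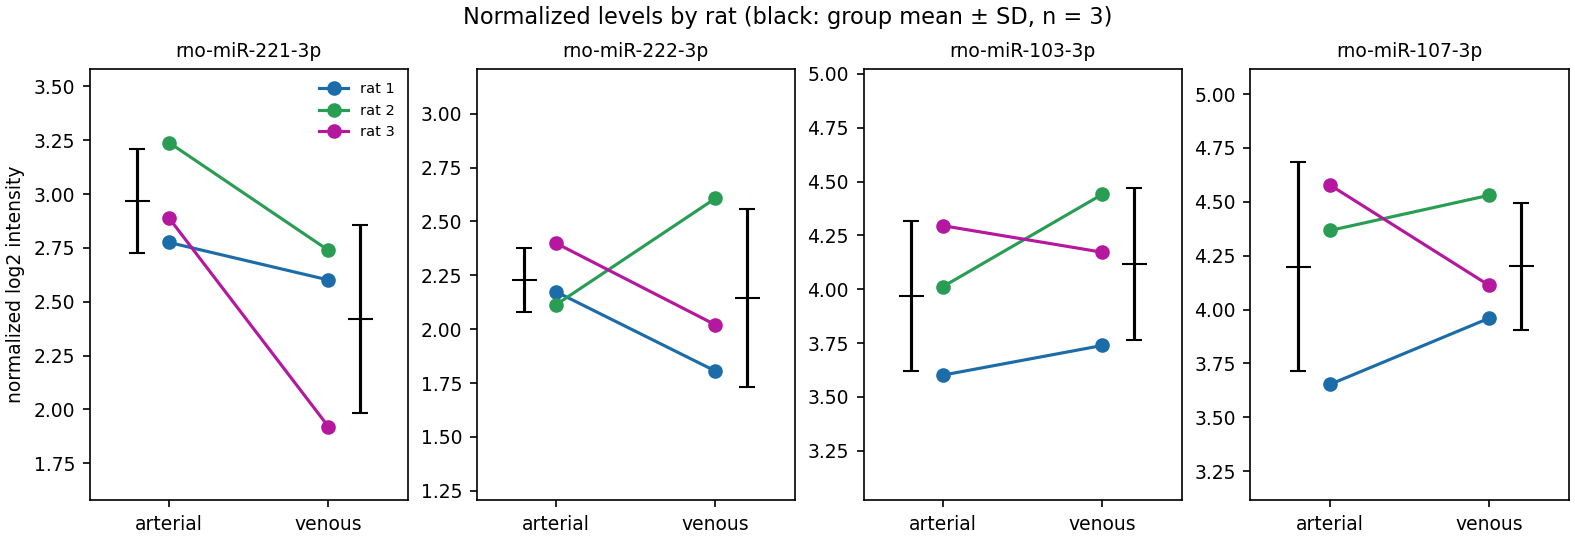
Normalized log2 intensity of the 4 microRNAs in arterial and venous plasma, with a line for each rat and the group mean ± SD (n = 3) in black. Each panel has its own axis of equal span, since levels of different probes are not comparable; miR-221-3p falls from arterial to venous plasma in all 3 rats, and in the other 3 panels the rats go in different directions.

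In the metabolic pair, too, the rats went in different directions on the quantile-normalized scale. miR-103-3p had a normalized log2 intensity of 3.6, 4.01 and 4.29 on the arterial arrays (rats 1, 2 and 3) and 3.74, 4.44 and 4.17 on the venous arrays. It was higher in venous plasma in rats 1 and 2 and higher in arterial plasma in rat 3. This changed with the scaling, since it was arterial-higher in 0 of 3 rats with the 75th percentile (mean -0.24, unadjusted limma p = 0.0491, adjusted p = 1) and in the authors' quantile-normalized table (mean -0.11, adjusted limma p = 0.890). The differences of -0.14, -0.43 and 0.12 had a mean of -0.15 with a standard error of 0.152 and a 95% interval of -0.75 to 0.45 (limma, unadjusted p = 0.426, adjusted p = 1). Fitted among the 126 microRNAs detected on all arrays, where limma's prior carried more weight, the interval was -0.64 to 0.34 (limma, adjusted p = 0.876).

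miR-107-3p had 3.65, 4.37 and 4.58 in arterial and 3.96, 4.53 and 4.11 in venous plasma on the normalized log2 scale. Its directions in the rats were those of its partner, venous in rats 1 and 2 and arterial in rat 3. The differences of -0.31, -0.16 and 0.47 cancelled to a mean of -0.00 with a standard error of 0.226 and a 95% interval of -0.90 to 0.89 (limma, unadjusted p = 0.995, adjusted p = 1). Among the 126 detected on all arrays the interval was -0.57 to 0.56 (limma, adjusted p = 1). The intervals of both thus still held differences of over 0.3 on the log2 scale in either direction.

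By the cutoff of the study's methods, an unadjusted p of 0.025, 0 of the 4 microRNAs passed in the limma fit over 758 microRNAs, where 6 (0.792%) did. At an adjusted limma p of 0.05, 0 of 4 and 0 of 758 passed (0.0%), with 12 of 758 at an unadjusted p under 0.05. In the fit over the 126 detected on all arrays, 3 (2.38%) passed the cutoff, and neither miR-103-3p nor miR-107-3p was among them. The test of the study's methods was also run, on the intensities as treated here and not on the paper's own normalized values. On its own values the paper reports more microRNAs at this cutoff, so the count that follows does not stand for the paper's result. The methods' t-test passed 4 of 758 at the cutoff, 2 in each direction, and 0 of the 4 members, with 9 of 758 at an unadjusted p under 0.05.

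**Figure D3:**
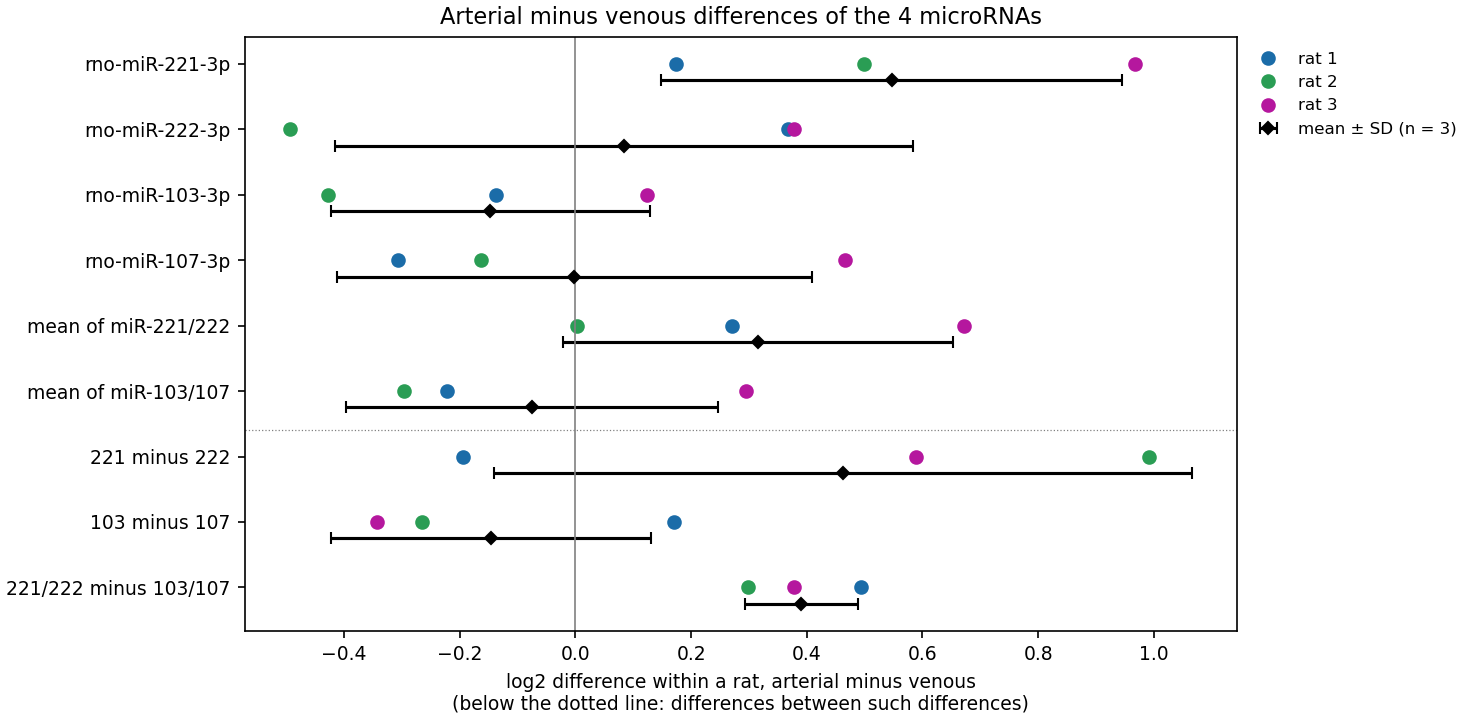
Arterial minus venous log2 difference within each rat (coloured points) for the 4 microRNAs and the means of both pairs, and below the dotted line the differences between such differences, with the mean ± SD over 3 rats as black diamonds. The points of the lowest line, the vascular minus the metabolic pair, lie between 0.30 and 0.49, and those of every other line spread more widely.

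The pairs were then compared by their differences within a rat, because levels of different probes cannot be set against each other. Within the vascular pair, the arterial minus venous difference of miR-221-3p exceeded that of miR-222-3p by -0.19, 0.99 and 0.59 in rats 1, 2 and 3, or 0.46 ± 0.60 (SD, n = 3; two-sided p = 0.5 by an exact permutation test over the rats). Within the metabolic pair, miR-103-3p minus miR-107-3p gave 0.17, -0.26 and -0.34, or -0.15 ± 0.28 (SD, n = 3; exact permutation test, p = 0.5). With 3 rats this test cannot go below 0.25, so neither comparison could have passed a threshold.

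Between the pairs, the mean of miR-221-3p and miR-222-3p had an arterial minus venous difference of 0.27, 0.00 and 0.67 in rats 1, 2 and 3, and the mean of miR-103-3p and miR-107-3p one of -0.22, -0.30 and 0.29. Each pair followed the same order of rats at its top, with rat 3 the most arterial. The vascular pair lay above the metabolic pair by 0.49, 0.30 and 0.38, or 0.39 ± 0.098 (SD, n = 3), in 3 of 3 rats. The exact permutation test gave a two-sided p of 0.25, the smallest that 3 pairs allow, and 0.5 after Benjamini-Hochberg adjustment over the 3 comparisons made. The mean stayed above 0 in 11 of 11 alternatives, from 0.04 to 0.60. With normexp background correction, with outlier spots kept and with the total gene signal, 2 of 3 rats rather than 3 were above 0. In rat 2 of the main setting miR-221-3p (0.50) and miR-222-3p (-0.49) went opposite ways, and miR-222-3p alone lay below the metabolic mean. The contrast in that rat thus rested on miR-221-3p, which was near background and whose probes pointed in opposite directions there.

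The partners were also set against each other on each array. The log2 ratio of miR-103-3p to miR-107-3p, on the normalized scale, was -0.05, -0.35 and -0.28 on the arterial arrays (rats 1, 2 and 3) and -0.22, -0.09 and 0.06 on the venous arrays. That of miR-221-3p to miR-222-3p was 0.60, 1.12 and 0.49 in arterial and 0.80, 0.13 and -0.10 in venous plasma, a ratio of 2 readings near background whose spots varied more than those of the metabolic pair. The spread of both ratios is therefore not compared. The Pearson correlation of partners over the 6 arrays was 0.901 for miR-103-3p and miR-107-3p and 0.297 for miR-221-3p and miR-222-3p. Without normalization it was 0.941 and 0.853, a scale on which all microRNAs of an array share its overall brightness. The pairs are not compared by these correlations, since those of the vascular pair rest on readings near background. Whether the probes of miR-103-3p and miR-107-3p shared signal was not tested. Arrays of the same rat are not independent, so no p-value is attached to these values.

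The rats also differed from each other. The mean normalized log2 intensity of both arrays of a rat was 3.67, 4.23 and 4.23 for miR-103-3p in rats 1, 2 and 3 and 3.81, 4.45 and 4.34 for miR-107-3p, so rat 1 was lowest in both. For miR-221-3p it was 2.69, 2.99 and 2.40, with rat 2 highest, and for miR-222-3p 1.99, 2.36 and 2.21, again with rat 2 highest. The highest array stood 1.79-fold over the lowest for miR-103-3p and 1.90-fold for miR-107-3p after normalization, and 2.90-fold and 3.08-fold before it.

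The microRNAs whose normalized pattern over the 6 arrays was most like each member were sought among those detected on all arrays, which leaves out miR-221-3p and miR-222-3p as candidates. For miR-221-3p they were rno-miR-99a-5p (Pearson r = 0.892), rno-miR-29c-3p (0.887), a repressor of collagen transcripts, and rno-miR-10a-5p (0.876), a microRNA of the Hox clusters also known from endothelium. For miR-222-3p they were rno-miR-128-3p (0.810), rno-miR-142-5p (0.767), a microRNA of blood cells, and rno-miR-16-5p (0.725), abundant in erythrocytes. For miR-103-3p they were rno-miR-16-5p (0.956), rno-miR-361-5p (0.949) and rno-miR-140-3p (0.948), and miR-107-3p ranked 7 of 125. For miR-107-3p they were rno-miR-27a-3p (0.982), rno-miR-146a-5p (0.969), which acts on inflammatory signalling, and rno-miR-142-5p (0.961), and miR-103-3p ranked 12 of 125. These values rest on 6 arrays from 3 rats and describe likeness only.

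Among other vascular and metabolic microRNAs, none of those listed passed the limma cutoff. Of 17 listed vascular microRNAs, 14 were detected on all arrays and 0 passed the limma cutoff in either direction, and the median difference of the 14 was 0.04 against -0.00 over the 126. They ran from -0.47 for rno-miR-17-5p, of the angiogenesis-linked miR-17 cluster, to 0.74 for rno-miR-143-3p, a marker of smooth muscle, whose differences were 0.33, 0.89 and 1.00 in rats 1, 2 and 3. Among the 17, 3 were arterial-higher in all 3 rats (miR-143-3p, rno-miR-10a-5p and rno-miR-10b-5p) and 1, miR-17-5p, venous-higher, beside 22 (10.9%) and 15 (7.46%) of the 201 detected on at least 1 array. Of 12 listed metabolic microRNAs on the array, 7 were detected on all arrays and 4 on none, 0 passed, and the median of the 7 was 0.28, with a range of -0.04 (rno-miR-26a-5p) to 0.74 (miR-143-3p, which is on both lists).

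The markers of blood cells went several ways. The summed normalized intensity of the 6 listed erythrocyte microRNAs, arterial minus venous, was -0.09, -0.23 and 0.41 on the log2 scale in rats 1, 2 and 3, below 0 in rats 1 and 2 and above 0 in rat 3, as for miR-103-3p and miR-107-3p on the same scale. Of the 5 detected on all arrays, rno-miR-144-3p, rno-miR-16-5p and rno-miR-25-3p had these signs. rno-miR-486 was venous-higher in all 3 rats (-0.23, -1.02 and -0.47), and rno-miR-451-5p was at 0.00 in rats 1 and 2 and 0.79 in rat 3. Under quantile normalization these values of 0.00 mean the same rank on both arrays of the rat, which need not be an unchanged level. The sums ranged from 2101 to 2342 in arterial and from 1766 to 2470 in venous plasma, and miR-451-5p, the most erythrocyte-specific of them, was detected on all arrays. The 6 platelet and leukocyte markers gave -0.39, -0.21 and -0.00, with sums of 567 to 1045 and 732 to 1046, and each of them was detected on at least 1 array. Among them rno-miR-142-3p (-0.49, -0.92 and 0.86) and rno-miR-142-5p (-0.14, -0.40 and 0.54) had the signs of the metabolic pair. rno-miR-150-5p and rno-miR-342-3p were venous-higher in all 3 rats, beside 15 (7.46%) of the 201 detected on at least 1 array. miR-342-3p (mean -0.41, limma, unadjusted p = 0.0082) passed the unadjusted cutoff of 0.025, as 6 of 758 (0.792%) did, and at an adjusted p of 0.05 none did. The signs of the metabolic pair were not particular to blood cell markers, since rno-miR-27a-3p of the vascular list had them too. How many of all detected microRNAs had them was not counted. The part of these cells in the values of miR-103-3p and miR-107-3p was not tested.

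Beside the vascular pair, the endothelial markers rno-miR-126a-3p and rno-miR-126a-5p, summed, gave -0.12, 0.34 and 0.44, positive in the rats with the 2 larger differences of miR-221-3p and negative in rat 1. Their sums were 31.7 to 53.9 in arterial and 32.5 to 42.6 in venous plasma. miR-222-3p (0.37, -0.49 and 0.38) had the opposite signs in rats 1 and 2. The 3 liver markers gave -0.34, 1.13 and 0.28, the same signs as the endothelial sum. Their sums were 74.3 to 585 and 94.2 to 267, and rno-miR-194-5p was detected on 0 arrays. The 6 muscle markers gave 0.17, -0.11 and -0.06, with sums of 21.1 to 47.2 and 21.2 to 49.1, and 4 of them, among them the defining rno-miR-1-3p, rno-miR-133a-3p and rno-miR-208a-3p, were detected on 0 arrays. The part of these cell types in the values of miR-221-3p and miR-222-3p was not tested.

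**Figure D4:**
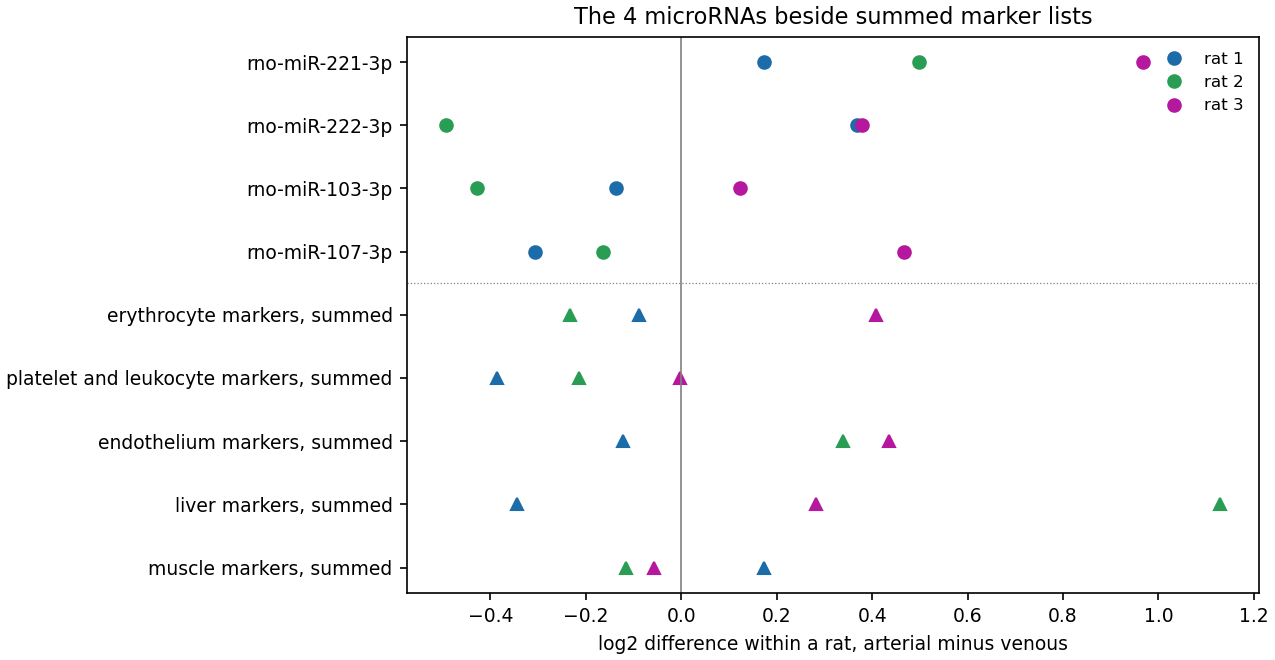
Arterial minus venous log2 difference within each rat for the 4 microRNAs (circles) and for the summed normalized intensity of the microRNAs of each marker list (triangles), coloured by rat. The erythrocyte sum is below 0 in rats 1 and 2 and above 0 in rat 3, though its members differ and miR-486 is below 0 in all 3 rats.

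The signs of the mean differences of the 3 members other than miR-221-3p depended on how the intensities were treated, and the sizes did for all 4. miR-221-3p was above 0 in all 15 alternatives in which it could be fitted, from 0.05 with normexp to 1.21 with the total gene signal. Without normalization between arrays the 126 detected microRNAs shifted by a median of 0.40 towards arterial plasma, and all 4 members were positive with means of 0.80, 0.42, 0.19 and 0.45 for miR-221-3p, miR-222-3p, miR-103-3p and miR-107-3p. Relative to that shift they were 0.39, 0.02, -0.22 and 0.05.

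**Figure D5:**
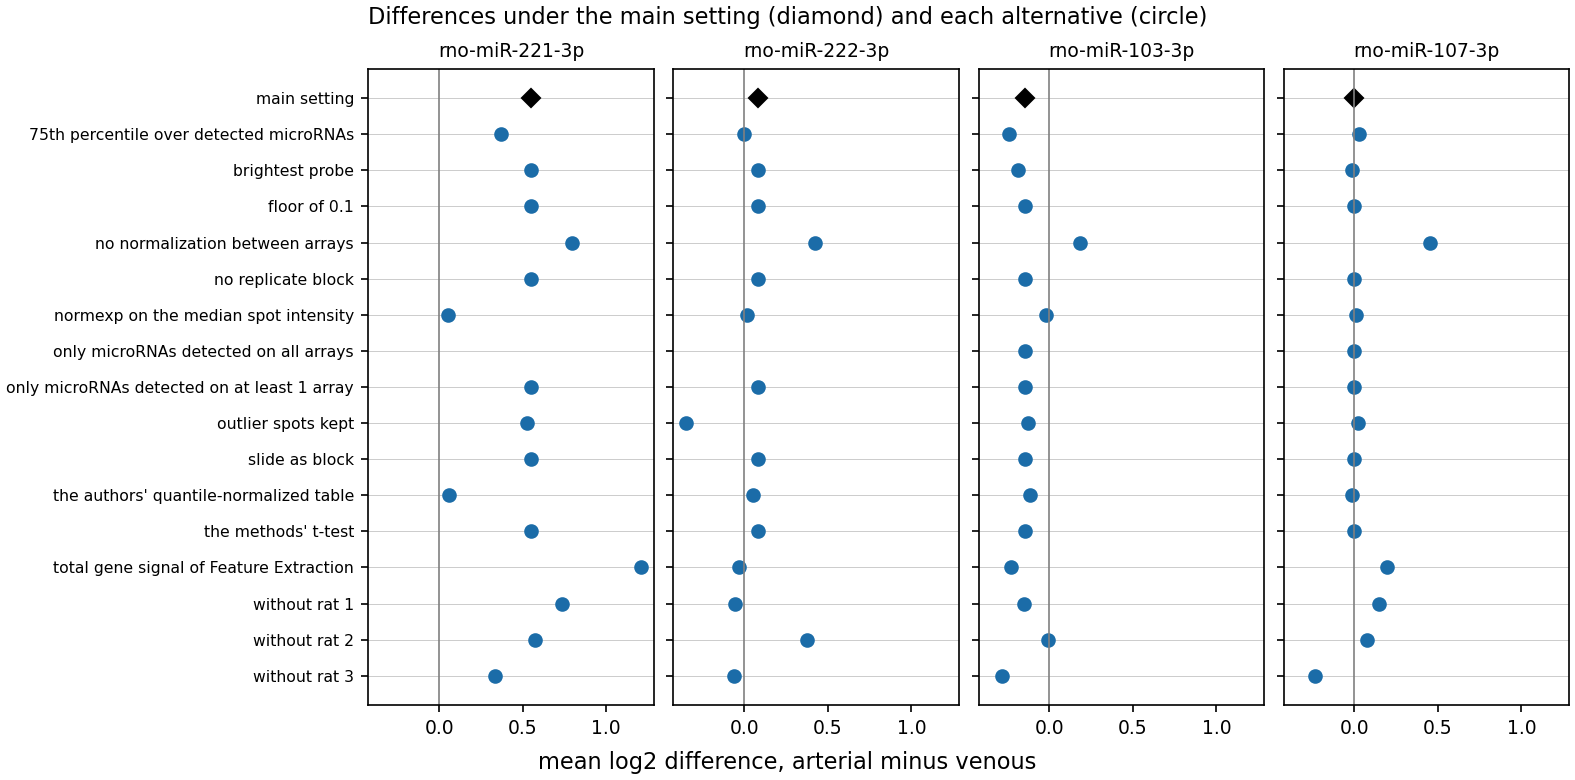
Mean arterial minus venous log2 difference of the 4 microRNAs under the main setting (black diamonds) and each alternative (blue circles). miR-221-3p stays to the right of 0, the others fall on both sides, and the rows for microRNAs detected on all arrays hold miR-103-3p and miR-107-3p alone.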

How the data were processed

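Plasma RNA of the 6 samples was Cy3 labelled and hybridized to Agilent rat miRNA arrays. The authors deposited, for each array, spot intensities with local background subtracted and no normalization between arrays (Feature Extraction 10.7.3.1 per the file headers, 11.0.1.1 per the processing notes), and a table of linear intensities that they quantile normalized with GeneSpring. All columns of that table were matched to samples (0 unmatched).

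Spots flagged as outliers (8.72 to 10.4% of an array) were left out, and 0 spots were saturated. Spots of a probe and then probes of a microRNA were averaged, the 758 microRNAs were quantile normalized between arrays, a floor of 1 was set, and the deposited intensities so treated were put on the log2 scale. At 1 on every array were 378 microRNAs. The detection calls are those of Feature Extraction, and a spot counted as well above background by its flag. Arterial and venous plasma were compared with limma 3.58.1 in R 4.3.3 (rat as block, two-sided, Benjamini-Hochberg over 758). Rows without spread left limma's prior 0.198 degrees of freedom, against 3.22 over the 126 detected microRNAs. Contrasts within rats used exact permutation tests (Python 3.11.15, scipy 1.17.1). The steps were tested on simulated data.

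The pairing follows the rat number in the labels. Deviations from the group means over the 126 microRNAs correlated at 0.80, 0.69 and 0.64 within rats 1, 2 and 3 and at -0.73 to -0.01 between rats. Values between rats are drawn below 0 by centring on the group means once those within rats are above it. Named microRNAs are the members, the other arms of their hairpins, microRNAs sharing a seed, the 3 most alike per member by Pearson correlation over 6 arrays, and listed vascular, metabolic and cell type microRNAs by counts, with values where a result turns on them. miR-143-3p, miR-10a-5p, miR-10b-5p, miR-17-5p and miR-27a-3p are named from the vascular list, and the blood cell markers with values from theirs, after their values were seen. The members, lists and tests were chosen with earlier results of these data known. Alternatives changed the normalization, the intensity, the background correction, the probe summary, outlier spots, the floor, the filter, the test, the block and the rats. The files hold no mean spot intensity, so normexp (offset 50) was run on the median. Intensities on 6 arrays limit the precision, and no coordinates are given, since the sequence table (GRCr8) is of another assembly than the array design.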

Additional observations from a re-analysis of the deposited data

How the results depend on the processing

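miR-221-3p kept its direction in 15 of 15 alternatives (0.05 to 1.21), and the 3 contrasts within rats in 11 of 11. The lower floor could move none of these values, and the filter to at least 1 array, the t-test and the block could not move that of miR-221-3p. Leaving out a rat could not turn the sign of miR-221-3p or of the contrast between the pairs, since all 3 rats were above 0 in both. For the contrasts, the 75th percentile and no normalization gave the same values, since scaling an array cancels. The other members turned their sign: miR-222-3p with the 75th percentile (-0.0037), outlier spots kept (-0.35) and total gene signal (-0.0305), miR-107-3p with the 75th percentile (0.0281), no normalization (0.45), normexp (0.009), outlier spots kept (0.02) and total gene signal (0.20), and miR-103-3p without normalization (0.19). The cause was not tested. Leaving out 1 rat gave 0.34 to 0.73 for miR-221-3p, -0.0627 to 0.37 for miR-222-3p, -0.28 to -0.01 for miR-103-3p and -0.24 to 0.15 for miR-107-3p. Members past the cutoff then numbered 0 to 1, the 1 being miR-222-3p without rat 2. Without the rat as replicate block the values were 0.55, 0.08, -0.15 and -0.00 for miR-221-3p, miR-222-3p, miR-103-3p and miR-107-3p, as with it, since leaving out the block cannot move these means. The block and every other alternative changed no other call. miR-221-3p and miR-222-3p have no value among microRNAs detected on all arrays, where neither was. Signal near background limits their values, and 3 rats limit all tests.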

Other observations

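The first 7 bases of miR-103-3p and miR-107-3p, AGCAGCA, are bases 2 to 8 of the miR-15/16 family, of which 5 members on the array had a sequence in the table. They are shown because the shift by 1 base gives both groups an overlapping seed (RefSeq, GRCr8 table, seed in capitals).
rno-miR-16-5p: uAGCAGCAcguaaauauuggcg
rno-miR-15b-5p: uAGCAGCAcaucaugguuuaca
rno-miR-195-5p: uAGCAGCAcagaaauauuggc
rno-miR-497-5p: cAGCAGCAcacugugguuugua
miR-16-5p, detected on 6 arrays, had arterial minus venous log2 differences of -0.24, -0.45 and 0.23 in rats 1, 2 and 3, and miR-15b-5p, detected on 6, of -0.27, -0.28 and 0.54. On this quantile-normalized scale both had the signs of miR-103-3p and miR-107-3p in every rat. MicroRNAs outside this family, such as rno-miR-25-3p and rno-miR-27a-3p, had those signs too. miR-195-5p, detected on 4 arrays, had 0.03, 0.42 and 1.25, and its cluster partner miR-497-5p, detected on 5, had 0.10, 0.33 and 0.29, positive in each rat. Their mean differences in the limma fit were 0.56 (unadjusted p = 0.230, adjusted p = 1) and 0.24 (unadjusted p = 0.0628, adjusted p = 1). rno-miR-322-5p was detected on 0 arrays.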
